A study of Schizosaccharomyces pombe with 6 samples.

Results

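Loss of Mas5 and loss of Ssa2 were compared directly in fission yeast (Schizosaccharomyces pombe), gene by gene. For each gene, the log2 ratio of ssa2Δ cells to wild type was subtracted from the log2 ratio of mas5Δ cells to wild type. The wild type library is the same in both ratios and cancels, so a positive log2 difference means a higher level in mas5Δ cells and a negative one a higher level in ssa2Δ cells. Members were the genes above 0 in both tables that reached 10 FPKM (fragments per kilobase of transcript, scaled to the reads of the library) in at least one of the mutants. Of 7008 genes listed, 5395 met this rule: 4661 were protein-coding, 705 were non-coding RNA genes and 29 had another biotype or none in RefSeq. A further 606 genes were listed at 0 in at least one of the 4 values, and 1007 lay under the floor.

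The series holds 6 RNA-seq libraries, 1 for each condition. The mas5Δ, ssa2Δ and wild type cells grew in rich YE medium at 24°C, and a wild type culture moved to 36°C for 15 min served as the heat-stressed library. Cells overexpressing hsf1 from the nmt1 promoter had their own wild type, and both grew in minimal medium without thiamine at 24°C. In the study's strain list both deletions replace the open reading frame with ura4+ in ura4-D18 leu1-32 cells carrying an ade6 allele, so both mutants carry the marker. With 1 library per condition there was no measure of replicate error, no test was possible, and every difference below is a difference between 2 libraries.

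Hsp70 chaperones bind unfolded stretches of protein and release them in cycles of ATP hydrolysis. Hsp40 (J-domain) proteins bring clients to Hsp70 and trigger that hydrolysis. In fission yeast Ssa1 and Ssa2 are the main nucleocytoplasmic Hsp70s, and Mas5 is an Hsp40 related to Ydj1 of budding yeast. Hsf1 is the transcription factor that induces chaperone genes on heat shock, and in many eukaryotes Hsp70 and Hsp40 hold it in check. The comparison therefore asks where cells without the Hsp40 differ from cells without its Hsp70 partner.

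The deleted genes matched the labels. The mas5 transcript (SPBC1734.11, chromosome II) stood at 36.3 FPKM in mas5Δ cells and 956 FPKM in ssa2Δ cells, against 470 FPKM in wild type. The ssa2 transcript (SPCC1739.13, chromosome III) stood at 7496 FPKM in mas5Δ cells and 55.0 FPKM in ssa2Δ cells, against 3283 FPKM in wild type. Each mutant thus held more of the partner's transcript than wild type did. The ura4 marker, listed at 0 in wild type, stood at 116 FPKM in mas5Δ cells and 58.8 FPKM in ssa2Δ cells. Neither hsf1 itself (80.5 FPKM in mas5Δ cells, 71.6 FPKM in ssa2Δ cells, log2 difference 0.02) nor the 3 genes on either side of each deletion differed by 2-fold, the widest difference there being 0.75 at alg12. All wild type values given here are on the scale of the mas5Δ table, where the same library reads 1.11 times higher than in the ssa2Δ table.

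Most transcripts were close in the 2 mutants. The log2 difference had a median of -0.04 and an SD of 0.76 over the 5395 members, and 4932 members (91.4%) lay within 2-fold. The members outside that range were mostly on the ssa2Δ side: 102 members (1.89%) were higher in mas5Δ cells past 2-fold and 361 (6.69%) were higher in ssa2Δ cells past 2-fold. With mas5Δ FPKM divided by ssa2Δ FPKM directly, without the wild type term, the median moved up by 0.15 on the log2 scale and the counts were 133 and 294. Only 34 of the 102 and 230 of the 361 reached the floor in both mutants, so the others became members through the mutant in which they were high.

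Among protein-coding members, 49 of 4661 (1.05%) were higher in mas5Δ cells and 193 (4.14%) in ssa2Δ cells. Non-coding RNA genes differed more often, with 51 of 705 (7.23%) higher in mas5Δ cells and 157 (22.3%) in ssa2Δ cells. Many genes share an annotated locus with an overlapping neighbour, and no strand setting is named, so their reads cannot be told apart with certainty. Among the 1746 members alone in their locus, 47 (2.69%) were higher in mas5Δ cells and 84 (4.81%) in ssa2Δ cells. The members nearest the 2-fold line were SPNCRNA.1236 (log2 difference 1.006) and SPNCRNA.443 (0.999) on the mas5Δ side, and gld1 (-1.004) and SPBC21B10.15 (-0.999) on the ssa2Δ side. The lowest level inside the floor was 10.0 FPKM, and the gene just below it, map4, reached 9.97 FPKM.

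**Figure D1:**
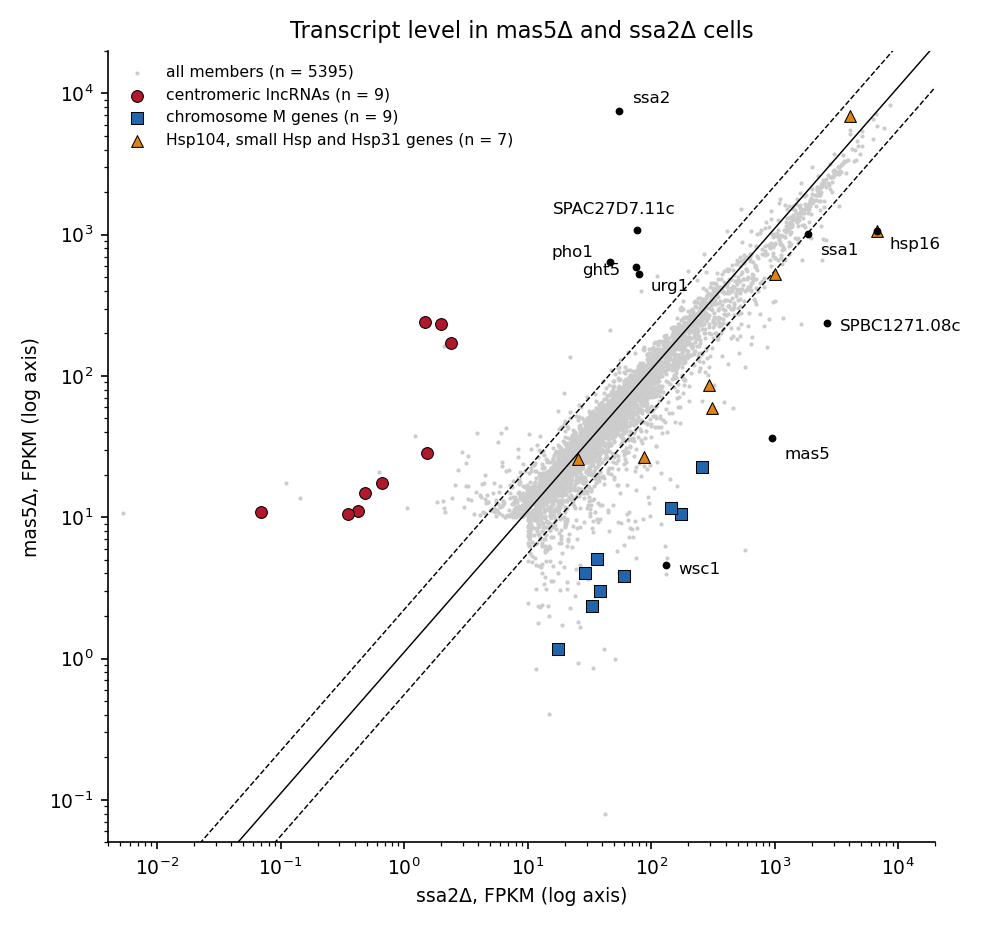
Level of each member in mas5Δ cells (vertical, FPKM, log axis) against ssa2Δ cells (horizontal, FPKM, log axis). The solid line marks equal ratios to wild type and the dashed lines mark 2-fold; the 9 centromeric lncRNAs lie far above the lines, the 9 genes of chromosome M below them, and 4932 of 5395 members lie between the dashed lines.

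The 2 sets stood differently against wild type. Of the 361 members higher in ssa2Δ cells, 67 (18.6%) were above wild type past 2-fold in mas5Δ cells and 263 (72.9%) in ssa2Δ cells, while 47 were below wild type past 2-fold in mas5Δ cells. Over all members the shares up past 2-fold were 5% in mas5Δ cells and 9.25% in ssa2Δ cells, and the shares down past 2-fold were 3.71% and 2.15%. For the most part, then, transcripts on the ssa2Δ side were within 2-fold of wild type in mas5Δ cells and above it in ssa2Δ cells. Of the 102 members higher in mas5Δ cells, 47 were above wild type past 2-fold in mas5Δ cells and 47 were below wild type past 2-fold in ssa2Δ cells. Since these ratios enter the difference itself, they only describe it.

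The heat-stressed library took no part in the difference, because the wild type term cancels. Members far above wild type after heat were often higher in ssa2Δ cells. Of the 361 members on the ssa2Δ side, 199 of the 357 with a heat ratio (55.7%) were up past 2-fold in heat-stressed wild type, against 12% of all members, and 24 (6.72%) were down, against 9.17%. On the mas5Δ side 22 of 101 (21.8%) were up and 29 (28.7%) were down, so both directions were more frequent there than over all members. In hsf1-overexpressing cells 180 of 349 members of the ssa2Δ side (51.6%) were up past 2-fold, against 22.5% of all members, and 47 (13.5%) were down, against 16.6%. Of 94 members of the mas5Δ side 26 (27.7%) were up and 38 (40.4%) were down in those cells.

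The share on the ssa2Δ side grew with the size of the heat response. It was 3.16% of the 4246 members that heat left within 2-fold, 23.8% of the 411 that were up 2- to 4-fold, 38.5% of the 179 up 4- to 16-fold and 56.1% of the 57 up past 16-fold. In that top class the median ratio to wild type was 1.77 in mas5Δ cells and 3.27 in ssa2Δ cells on the log2 scale, and the median log2 difference was -1.24. By these medians both mutants lay above wild type, ssa2Δ cells further, though 3.51% of the class was higher in mas5Δ cells past 2-fold. Among the 78 members down past 4-fold in heat, 12.8% were higher in mas5Δ cells and 10.3% in ssa2Δ cells. Across all 5387 members with both values, Pearson's r between the difference and the heat ratio was -0.28 and Spearman's rho -0.12, given as a description across genes, which are not independent. Among the 4661 protein-coding members r was -0.19 and rho -0.06. For the 1631 of them alone in their locus r was -0.20 and rho -0.02, so the rank relation there was close to absent.

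**Figure D2:**
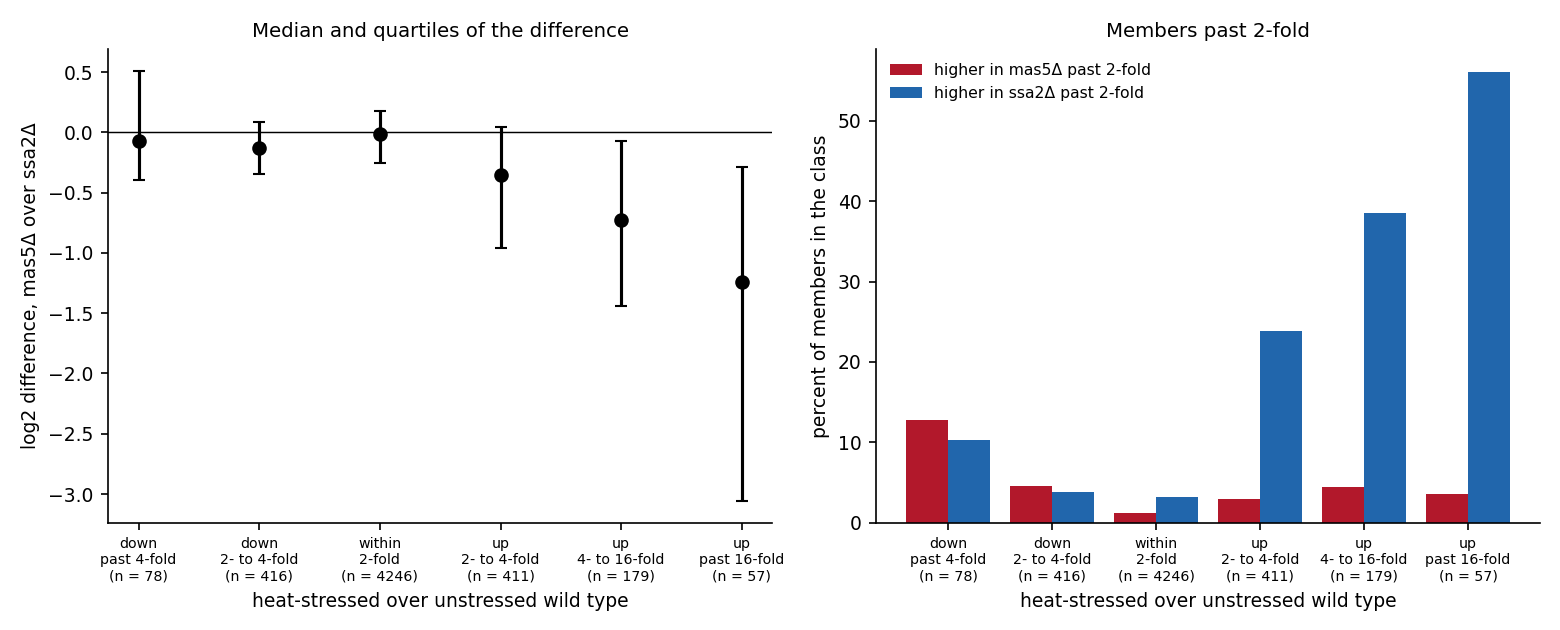
Members grouped by their ratio in heat-stressed over unstressed wild type (horizontal, 6 classes with their n). Left, the median (point) and quartiles (bars) of the log2 difference, mas5Δ over ssa2Δ; right, the percent of each class higher past 2-fold in mas5Δ (red) or ssa2Δ (blue) cells, which on the ssa2Δ side reached 56.1% in the top class.

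A list of Hsp104, small heat shock proteins and glyoxalases with hsp names had 5 of 7 members higher in ssa2Δ cells past 2-fold and 0 in mas5Δ cells. Of the 5, hsp3101 and hsp3104 are glyoxalase genes, and the median log2 difference of -1.86 is the value of hsp3101. The holdase gene hsp16, alone in its locus at chr2:2660139-2660992 of the file's coordinates, stood at 1069 FPKM in mas5Δ cells and 6733 FPKM in ssa2Δ cells, against 76.6 FPKM in wild type and 19822 FPKM after heat (log2 difference -2.80). Both mutants were thus well above wild type and ssa2Δ cells 6.98-fold above mas5Δ cells. The glyoxalase hsp3104 stood at 59.1 FPKM in mas5Δ cells and 308 FPKM in ssa2Δ cells (-2.53), with log2 ratios to wild type of -0.34 in mas5Δ cells and 2.19 in ssa2Δ cells. For hsp20, a small heat shock protein, the levels were 86.6 FPKM in mas5Δ cells, 296 FPKM in ssa2Δ cells and 62.4 FPKM in wild type (-1.92), so that past 2-fold only ssa2Δ cells exceeded wild type in these 2 genes. For hsp3101, another glyoxalase, they were 26.7 FPKM in mas5Δ cells, 87.3 FPKM in ssa2Δ cells and 9.11 FPKM in wild type (-1.86). The disaggregase gene hsp104 stood at 526 FPKM in mas5Δ cells and 1000 FPKM in ssa2Δ cells, against 48.7 FPKM in wild type (-1.08). With direct division hsp104 lay inside 2-fold, which left 4 of 7 past it. One gene of the list went the other way within 2-fold: hsp9 had 6906 FPKM in mas5Δ cells and 4042 FPKM in ssa2Δ cells, against 541 FPKM in wild type (0.62).

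Hsp70 and its partners differed less. The second Hsp70 gene, ssa1, stood at 1010 FPKM in mas5Δ cells and 1850 FPKM in ssa2Δ cells, against 66.2 FPKM in wild type and 5445 FPKM after heat. Its log2 difference of -1.02 was just past 2-fold. When the wild type term was left out, or when all differences were centred on their median, it lay inside 2-fold, as did that of sti1. The nucleotide exchange factor gene fes1 had 681 FPKM in mas5Δ cells and 1008 FPKM in ssa2Δ cells, against 199 FPKM in wild type (-0.71). Apart from mas5 itself, none of the 19 nucleocytoplasmic Hsp40 members differed past 2-fold. The other 18 lay between -0.69 and 0.54.

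All 9 genes for Hsp90 and its co-chaperones had a difference below 0, with a median of -0.70, and 2 passed 2-fold: cdc37, which delivers kinases to Hsp90, and sti1, which links Hsp70 to Hsp90. The cdc37 level was 36.6 FPKM in mas5Δ cells and 71.3 FPKM in ssa2Δ cells, against 30.5 FPKM in wild type (-1.11), and dividing the FPKM directly put it inside 2-fold. The sti1 level was 658 FPKM in mas5Δ cells and 1216 FPKM in ssa2Δ cells, against 307 FPKM in wild type (-1.03). For hsp90 itself the levels were closer, 4770 FPKM in mas5Δ cells and 6238 FPKM in ssa2Δ cells, against 1876 FPKM in wild type (-0.54). In mitochondria, the Hsp40 gene mdj1 had 55.0 FPKM in mas5Δ cells and 147 FPKM in ssa2Δ cells, against 62.1 FPKM in wild type (-1.57), and the 7 mitochondrial chaperone genes had a median of -0.78. The cytosolic chaperonin CCT, which folds actin and tubulin, did not share this direction: its 8 genes lay between -0.44 and 0.50 with a median of 0.15.

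In the promoter, Hsf1 binds the heat shock element, inverted repeats of the unit NGAAN. The windows from 250 bases before to 50 after each RefSeq gene start were searched on both strands for 3 units in a row, written GAANNTTCNNGAA or TTCNNGAANNTTC. Of 5103 protein-coding promoters 24 (0.47%) held such a run, against 3 of the 193 coding members higher in ssa2Δ cells (1.55%) and 1 of the 49 higher in mas5Δ cells, which was ssa2 itself. Of the 22 members with the motif, 7 were up past 2-fold in heat and 18 lay within 2-fold between the mutants. The stretches are shown because they include both Hsp70 genes; the low ssa2 level in ssa2Δ cells is the deletion itself, and in mas5Δ cells both genes stood above wild type, ssa1 by 3.93 and ssa2 by 1.19 on the log2 scale. Capitals mark the heat shock element, and positions are on assembly ASM294v3.
ssa2 (chr3:2056954-2057026, plus strand, bases 89 to 17 before the start): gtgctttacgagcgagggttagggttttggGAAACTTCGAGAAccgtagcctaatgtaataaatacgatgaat
ssa1 (chr1:2297980-2298052, minus strand, bases 88 to 16 before the start): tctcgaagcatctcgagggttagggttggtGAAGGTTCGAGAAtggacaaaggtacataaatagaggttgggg
SPBPB2B2.05 (chr2:4466487-4466559, plus strand, ending 51 bases before the start): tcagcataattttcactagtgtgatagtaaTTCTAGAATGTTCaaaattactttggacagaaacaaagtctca
SPBC1683.04 (chr2:142162-142212, plus strand, bases 250 to 200 before the start): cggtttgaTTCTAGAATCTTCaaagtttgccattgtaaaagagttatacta

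Lists of stress genes drawn from earlier microarrays of other cultures differed from one another. For scale, 1.89% of all members were higher in mas5Δ cells past 2-fold and 6.69% in ssa2Δ cells. Over protein-coding members these shares were 1.05% and 4.14%. Of the 26 members induced mainly by heat, 12 were higher in ssa2Δ cells and 1, the phosphate transporter gene pho842, in mas5Δ cells, with a median of -0.88. In the core environmental stress response (CESR), the genes that most stresses move together, cluster 4 had 10 of 18 members higher in ssa2Δ cells and a median of -1.07. Cluster 1 had 4 of 23 higher in ssa2Δ cells, and cluster 2 had 4 higher in mas5Δ cells and 12 in ssa2Δ cells of 47. Clusters 5, 6 and 7 lay below wild type after heat. In cluster 5, with 73 members, none passed 2-fold in either direction. Cluster 6 had pho841 (-1.88) and SPCC965.13 (-1.25) on the ssa2Δ side and pho84 (2.03) and SPBC887.17 (1.02) on the mas5Δ side. In cluster 7, SPAC8E11.10 (-2.71) and msa1 (-1.20) were higher in ssa2Δ cells past 2-fold. Genes induced mainly by oxidative stress (2 higher in mas5Δ cells and 7 in ssa2Δ cells of 64), cadmium (4 and 5 of 28) and osmotic stress (2 and 2 of 15) had members past 2-fold in both directions. Most members of the oxidative list lay below 0, on the ssa2Δ side. Of these lists, then, the heat list and cluster 4 had the lowest medians.

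Single members of these lists spread widely. SPBC1271.08c, an uncharacterized gene of cluster 4 in a locus with 5 others, stood at 239 FPKM in mas5Δ cells and 2662 FPKM in ssa2Δ cells, against 52.9 FPKM in wild type (-3.63). SPCC338.18, an uncharacterized gene on the heat list, stood at 10.3 FPKM in mas5Δ cells and 97.1 FPKM in ssa2Δ cells, against 5.43 FPKM in wild type (-3.39). ppp16, annotated as an acylpeptide hydrolase, stood at 116 FPKM in mas5Δ cells and 578 FPKM in ssa2Δ cells, against 68.7 FPKM in wild type (-2.47). These 3 genes were 5.54- to 12.4-fold higher in ssa2Δ cells, and mas5Δ cells exceeded wild type past 2-fold for SPBC1271.08c alone. In cluster 2, SPBC12C2.04, a dehydrogenase family gene, had 234 FPKM in mas5Δ cells and 1630 FPKM in ssa2Δ cells, against 144 FPKM in wild type (-2.95), whereas SPAC27D7.11c, of the But2 family, had 1072 FPKM in mas5Δ cells and 76.1 FPKM in ssa2Δ cells, against 160 FPKM in wild type (3.67). Another But2 family gene nearby, SPAC27D7.09c, went with the ssa2Δ side at 18.8 and 141 FPKM in mas5Δ and ssa2Δ cells, against 14.9 FPKM in wild type (-3.06).

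Trehalose, a sugar that protects proteins in heat, and glycerol metabolism followed the chaperones: 4 of 10 genes were higher in ssa2Δ cells and all 10 lay below 0, with a median of -0.83. The trehalose-phosphate synthase gene tps1 had 341 FPKM in mas5Δ cells and 687 FPKM in ssa2Δ cells, against 139 FPKM in wild type (-1.16). The trehalase gene ntp1, whose product breaks trehalose down, had 97.1 FPKM in mas5Δ cells and 182 FPKM in ssa2Δ cells, against 46.3 FPKM in wild type (-1.05). The dihydroxyacetone kinase gene dak2 had 59.9 FPKM in mas5Δ cells and 170 FPKM in ssa2Δ cells, against 26.7 FPKM in wild type (-1.65). Synthesis and breakdown genes thus stood higher in the same mutant, though ntp1 and gld1 lay inside 2-fold with direct division. After heat, dak2 and gpd2 lay below wild type (log2 ratios -1.41 and -0.37) and the other genes of the list above it.

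**Figure D3:**
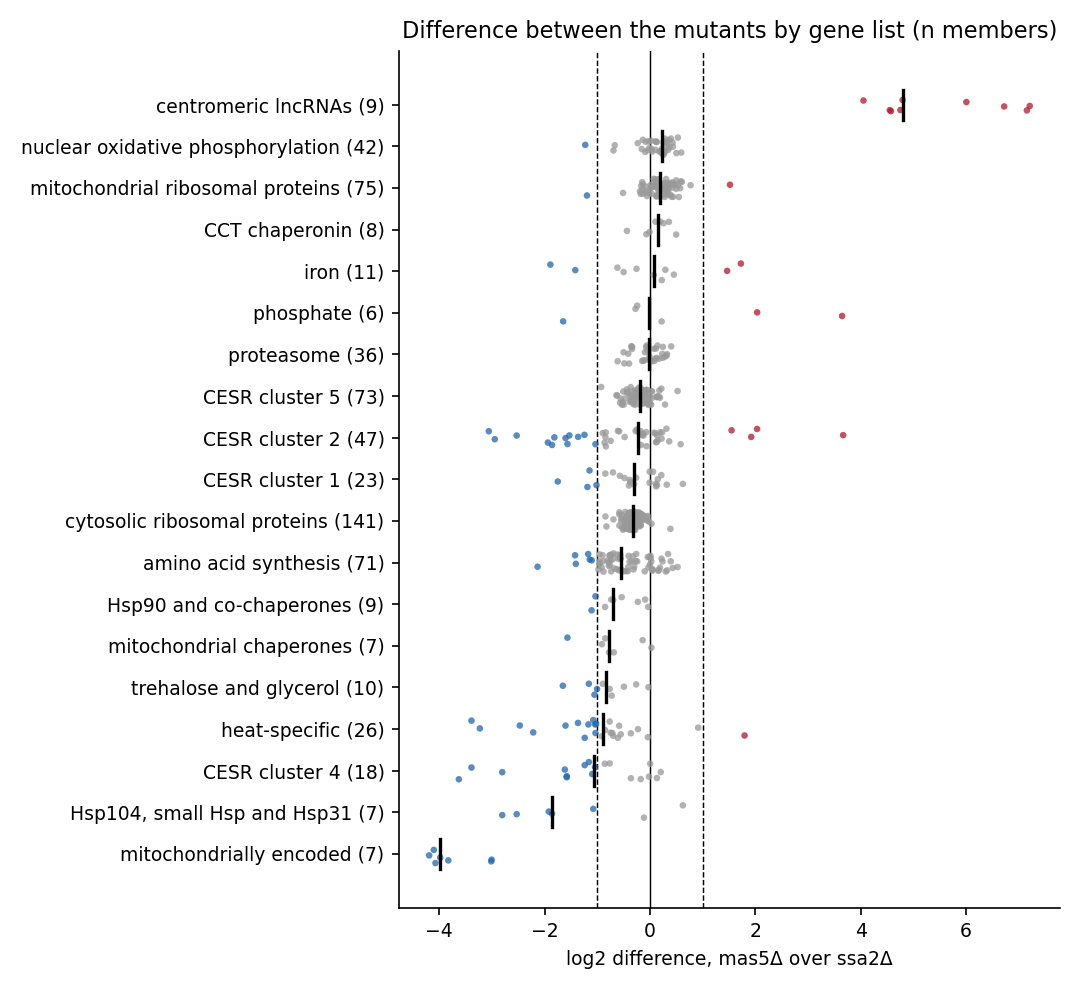
Log2 difference (horizontal, mas5Δ over ssa2Δ) of each member of 19 gene groups (rows, with the number of members); red dots are higher in mas5Δ cells past 2-fold, blue dots in ssa2Δ cells, and black bars are medians. The centromeric lncRNAs lie above 4, the mitochondrially encoded genes below -3, and the CCT, proteasome and cytosolic ribosomal protein genes inside 2-fold.

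The coding gene with the largest difference on the ssa2Δ side was wsc1 (SPBC30B4.01c, chromosome II), a cell surface sensor of cell wall stress. It stood at 4.56 FPKM in mas5Δ cells and 131 FPKM in ssa2Δ cells, against 8.49 FPKM in wild type and 12.8 FPKM after heat (-4.99). Its level was 31.9-fold higher in ssa2Δ cells, and after heat it lay within 2-fold of wild type. The locus holds 1 other gene. Another gene of cell surface growth was bud6, which binds actin and the formin For3 and was alone in its locus: 22.9 FPKM in mas5Δ cells and 87.2 FPKM in ssa2Δ cells, against 17.6 FPKM in wild type (-2.08). It was the only one of 16 Cdc42 and polarity genes past 2-fold, and the 20 cell wall glucan genes included 1, exg3, at -1.02, which lay inside 2-fold with direct division or centring.

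**Figure D4:**
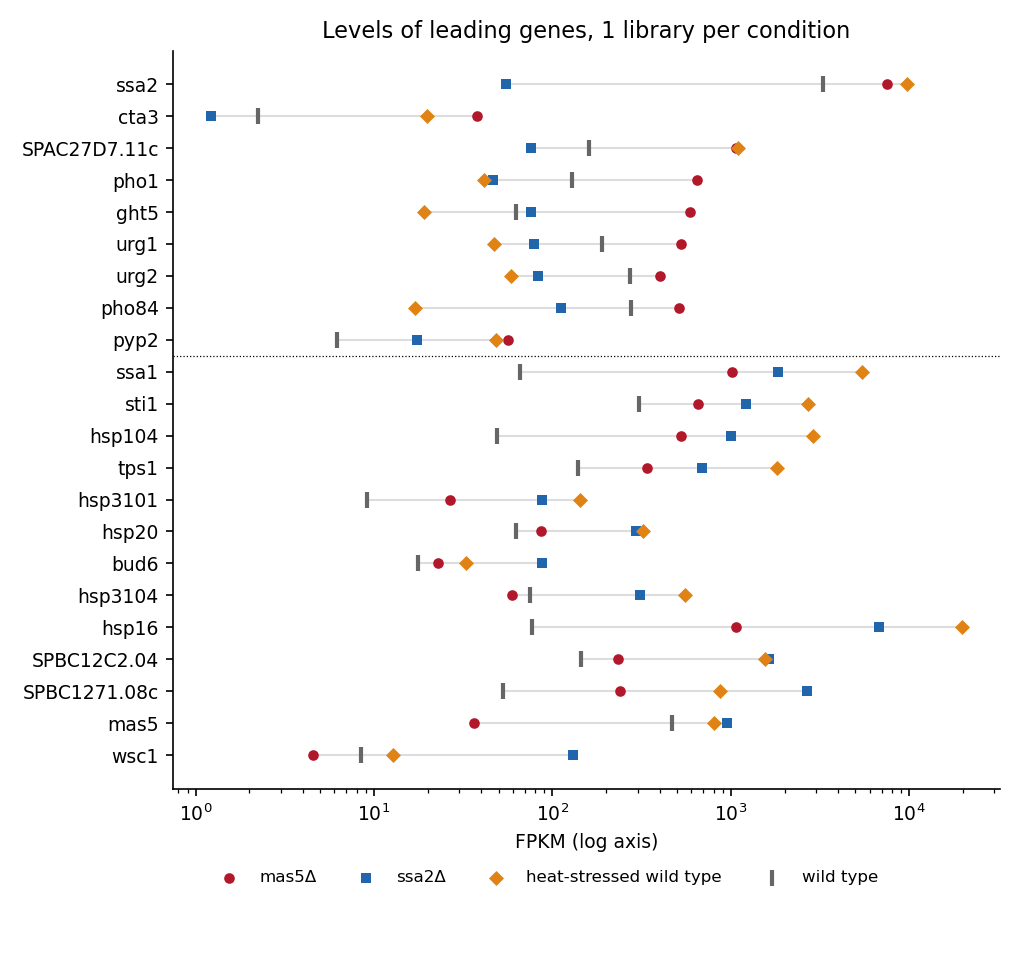
FPKM (horizontal, log axis) of 22 genes in mas5Δ (red circles), ssa2Δ (blue squares), heat-stressed wild type (orange diamonds) and wild type cells (grey bars), 1 library each. Genes above the dotted line are higher in mas5Δ cells and those below it in ssa2Δ cells; hsp16 reads 1069 FPKM in mas5Δ and 6733 FPKM in ssa2Δ cells.

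Apart from the tRNAs, transcripts of the mitochondrial genome separated the mutants as a block. All 9 members on chromosome M, 7 with SPMIT identifiers and both rRNAs, were higher in ssa2Δ cells, with log2 differences between -4.19 and -3.01. Of these, cox1, cox2, cox3, cob1, atp6 and SPMIT.06 became members through ssa2Δ cells alone, and atp9 and both rRNAs reached the floor in both mutants. The ATP synthase subunit gene atp9 stood at 10.5 FPKM in mas5Δ cells and 174 FPKM in ssa2Δ cells, against 1.64 FPKM in wild type (-4.19). The cytochrome oxidase genes cox1, cox2 and cox3 stood at 3.03, 5.05 and 4.00 FPKM in mas5Δ cells and at 38.8, 36.6 and 29.2 FPKM in ssa2Δ cells. For cob1, the cytochrome b gene, the levels were 2.34 FPKM in mas5Δ cells and 33.4 FPKM in ssa2Δ cells, against 0.718 FPKM in wild type (-3.98). No member of the block was close to equal in the mutants, and in both it was above wild type, by 1.11 to 2.68 in mas5Δ cells and by 4.68 to 6.87 in ssa2Δ cells on the log2 scale.

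Of 13 chromosome M genes listed without the tRNAs, 4 missed the rule; SPMIT.02 and SPMIT.03 lay under the floor with differences of -2.53 and -4.43, SPMIT.08 was listed at 0 in mas5Δ cells and 6.62 FPKM in ssa2Δ cells, and atp8 was listed at 0 in both. The rRNAs moved with the mRNAs: 15S rRNA stood at 22.8 FPKM in mas5Δ cells and 259 FPKM in ssa2Δ cells, against 4.50 FPKM in wild type. Summed over the mRNAs, the level was 31.1 FPKM in mas5Δ cells, 408 FPKM in ssa2Δ cells and 7.59 FPKM in wild type, and 22.4 FPKM after heat. With the tRNAs, all listed chromosome M genes held 0.115% of the summed FPKM in mas5Δ cells and 0.2% in ssa2Δ cells, against 0.0221% in wild type and 0.0162% after heat. The gap between the mutants was thus narrower with the tRNAs than without them. RNA was selected with oligo-dT before sequencing. In bulk RNA, a difference in the share of cells with a transcript and one in the amount per cell cannot be told apart.

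The nuclear genes of oxidative phosphorylation and of the mitochondrial ribosome did not go with the block. The 42 nuclear genes of oxidative phosphorylation had a median of 0.22, with 1, the ATP synthase assembly factor gene atp11, higher in ssa2Δ cells (-1.23). The 75 mitochondrial ribosomal protein genes had a median of 0.18. The direction of both medians was opposite to that of the mitochondrial genome, whereas the nuclear genes for mitochondrial chaperones, described above, had a median of -0.78.

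**Figure D5:**
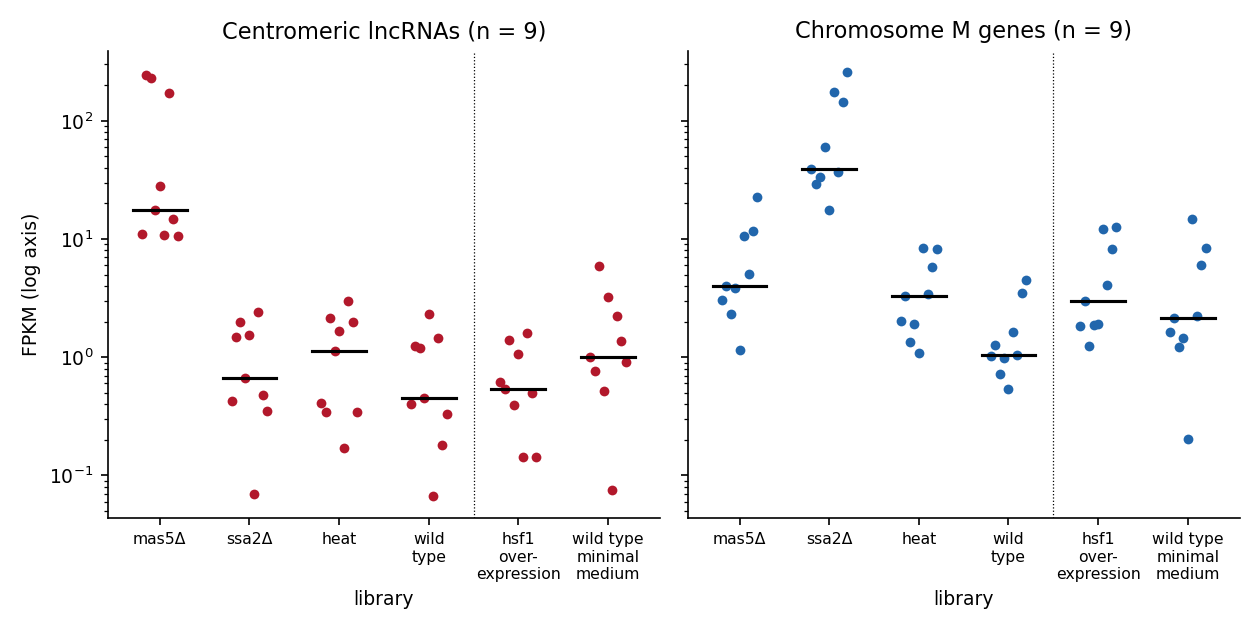
FPKM (vertical, log axis) of the 9 centromeric lncRNA members (left) and the 9 chromosome M members (right) in 6 libraries (horizontal, 1 each); dots are genes, black bars are medians, and the dotted line parts the rich-medium libraries from the minimal-medium pair. Centromeric transcripts summed to 757 FPKM in mas5Δ and 10.6 FPKM in ssa2Δ cells, while chromosome M genes were highest in ssa2Δ cells.

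The largest block on the mas5Δ side was centromeric. Fission yeast centromeres carry outer repeats whose transcripts feed RNA interference and which are packed in heterochromatin, so they are usually scarce in wild type cells. RefSeq names 22 listed genes as centromeric lncRNAs, of which 9 were members, 4 on chromosome I and 5 on chromosome II. All 9 were higher in mas5Δ cells, by 4.05 to 7.21 on the log2 scale. SPNCRNA.231 (chr1:3761023-3762114) stood at 242 FPKM in mas5Δ cells and 1.48 FPKM in ssa2Δ cells, against 1.25 FPKM in wild type (7.21). SPNCRNA.232 stood at 231 FPKM in mas5Δ cells and 1.98 FPKM in ssa2Δ cells, against 1.21 FPKM in wild type (6.72). SPNCRNA.362, on chromosome II, stood at 171 FPKM in mas5Δ cells and 2.40 FPKM in ssa2Δ cells, against 1.46 FPKM in wild type (6.01). The other 6 members stood at 10.5 to 28.3 FPKM in mas5Δ cells, and no centromeric lncRNA exceeded 5.88 FPKM in any of the other libraries.

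These 9 entered through mas5Δ cells alone, so the whole list matters more than their count. Summed over the 22 listed genes, the level was 757 FPKM in mas5Δ cells, 10.6 FPKM in ssa2Δ cells and 10.2 FPKM in wild type. It was 12.5 FPKM after heat, 10.12 FPKM with hsf1 overexpressed and 20.6 FPKM in wild type in minimal medium. The mas5Δ library therefore stood apart from every other library of the series. Of the 13 that were no members, 6 were at 0 in every library and the highest in mas5Δ cells was SPNCRNA.365 at 9.23 FPKM, against 0.232 FPKM in ssa2Δ cells and 1.03 FPKM in wild type. The order among the 9 is uncertain because the repeats share sequence: of the 50-base windows in each, the length of a read, 70% to 100% occur elsewhere in the genome, and the deposited values do not say how reads with several matches were shared out.

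The longest run shared by nam5 on chromosome I with another of these members, 499 bases in SPNCRNA.372 on chromosome II, shows why. Its first 80 bases, given on the plus strand of chromosome I and the minus strand of chromosome II (assembly ASM294v3), are printed to show that reads from the 2 genes cannot be told apart there; nothing is capitalized because the whole run is shared.
nam5 (chr1:3753730-3753809, plus strand): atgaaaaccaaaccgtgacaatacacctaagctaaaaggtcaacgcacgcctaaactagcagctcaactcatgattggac
SPNCRNA.372 (chr2:1638110-1638189, minus strand): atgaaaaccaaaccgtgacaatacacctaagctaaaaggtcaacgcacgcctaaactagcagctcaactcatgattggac

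Genes for heterochromatin and RNA interference factors, a list added after these values were seen, did not separate the mutants in the same way. Of its 22 genes 20 were members, 0 were higher in mas5Δ cells past 2-fold and 2 were higher in ssa2Δ cells, tas3 (24.6 FPKM in mas5Δ cells, 48.9 FPKM in ssa2Δ cells, -1.14) and arb1 (20.9 and 38.4 FPKM, -1.03). With direct division both lay inside 2-fold, as did arb1 with centring or a pseudocount of 1. Both act in RNA interference, tas3 in the RITS complex at heterochromatin and arb1 with Argonaute. Their median was -0.04, the same as over all members.

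Phosphate genes split. The acid phosphatase gene pho1, whose product frees phosphate outside the cell, stood at 644 FPKM in mas5Δ cells and 46.4 FPKM in ssa2Δ cells, against 128 FPKM in wild type and 41.5 FPKM after heat (3.65). The phosphate transporter gene pho84, its neighbour, stood at 510 FPKM in mas5Δ cells and 112 FPKM in ssa2Δ cells, against 275 FPKM in wild type (2.03). In both genes mas5Δ cells lay above wild type and ssa2Δ cells below it. Yet tgp1, a glycerophosphodiester transporter gene of the same regulon, had 6.56 FPKM in mas5Δ cells and 18.5 FPKM in ssa2Δ cells, against 16.4 FPKM in wild type (-1.65). The transporter gene pho841 had 40.1 FPKM in mas5Δ cells and 134 FPKM in ssa2Δ cells, against 77.9 FPKM in wild type (-1.88), whereas pho842 had 75.4 and 19.6 FPKM in mas5Δ and ssa2Δ cells, against 94.3 FPKM in wild type (1.80).

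The uracil-regulated genes urg2, urg3 and urg1 lie side by side on chromosome I and were all higher in mas5Δ cells. urg1, annotated as a GTP cyclohydrolase, had 525 FPKM in mas5Δ cells and 79.0 FPKM in ssa2Δ cells, against 189 FPKM in wild type (2.58). urg2, a predicted uracil phosphoribosyltransferase, had 401 FPKM in mas5Δ cells and 83.1 FPKM in ssa2Δ cells, against 272 FPKM in wild type (2.12). urg3 had 148 FPKM in mas5Δ cells and 64.5 FPKM in ssa2Δ cells, against 132 FPKM in wild type (1.05). The ura4 marker of uracil synthesis also stood higher in mas5Δ cells, at 116 FPKM against 58.8 FPKM in ssa2Δ cells; its part in the urg levels was not tested. Of 17 purine and pyrimidine synthesis genes 1, ade7, passed 2-fold, on the ssa2Δ side (-1.02), and lay inside it with direct division.

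Other genes on the mas5Δ side act in transport and signalling. The glucose transporter gene ght5 stood at 589 FPKM in mas5Δ cells and 76.0 FPKM in ssa2Δ cells, against 62.8 FPKM in wild type (2.81); of 6 hexose transporter genes it was the only one past 2-fold. The calcium ATPase gene cta3, in a locus with 2 other genes, stood at 37.6 FPKM in mas5Δ cells and 1.22 FPKM in ssa2Δ cells, against 2.23 FPKM in wild type and 19.8 FPKM after heat (4.80). pyp2, the phosphatase that dampens the stress MAP kinase Sty1, stood at 56.7 FPKM in mas5Δ cells and 17.5 FPKM in ssa2Δ cells, against 6.17 FPKM in wild type and 48.1 FPKM after heat (1.55). Both cta3 and pyp2 also stood above wild type past 2-fold after heat, so the mas5Δ side held some heat-responsive genes. In the Sty1 pathway list wis4, a MAP kinase kinase kinase gene, stood on the ssa2Δ side: it had 43.4 FPKM in mas5Δ cells and 108 FPKM in ssa2Δ cells, against 35.6 FPKM in wild type (-1.47). On the same side was pyp1, for another phosphatase of Sty1, with 16.7 FPKM in mas5Δ cells and 30.9 FPKM in ssa2Δ cells, against 19.9 FPKM in wild type (-1.04, inside 2-fold with direct division, centring or a pseudocount of 1). Among stress transcription factor genes atf21 (13.0 and 2.06 FPKM in mas5Δ and ssa2Δ cells, 2.50) stood on the mas5Δ side, and hsr1 (16.9 and 53.6 FPKM, -1.81) and pap1 (95.3 and 183 FPKM, -1.09, inside 2-fold with direct division) on the ssa2Δ side.

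Atf1, the factor that Sty1 phosphorylates, binds the letters TGACGT, read as ACGTCA on the other strand. In the 300-base windows this string was found in 302 of 5103 promoters (5.92%), in 8 of 49 on the mas5Δ side (16.3%) and in 15 of 193 on the ssa2Δ side (7.77%). The string can occur by chance, and a match is no evidence of binding. Genes from each side are shown with every copy of the string in capitals (3 in mug143), the stretches numbered on assembly ASM294v3; mug143 and wwm3 were both high in mas5Δ cells and in heat.
mug143 (chr1:1550006-1550071, plus strand, bases 72 to 7 before the start): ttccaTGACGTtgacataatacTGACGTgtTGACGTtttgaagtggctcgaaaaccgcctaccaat
wwm3 (chr2:202179-202244, plus strand, bases 102 to 37 before the start): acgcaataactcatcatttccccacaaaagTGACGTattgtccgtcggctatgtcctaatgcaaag
pho84 (chr2:4443956-4444021, plus strand, bases 145 to 80 before the start): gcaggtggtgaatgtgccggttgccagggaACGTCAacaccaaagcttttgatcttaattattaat
grx1 (chr1:4874117-4874182, plus strand, bases 102 to 37 before the start): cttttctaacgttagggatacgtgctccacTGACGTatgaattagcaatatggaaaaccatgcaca

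The first 3 lie on the mas5Δ side. mug143 had 24.6 FPKM in mas5Δ cells and 6.23 FPKM in ssa2Δ cells, against 0.16 FPKM in wild type (1.92), and wwm3 had 210 FPKM in mas5Δ cells and 46.4 FPKM in ssa2Δ cells, against 9.58 FPKM in wild type (2.03). The glutaredoxin gene grx1, which reduces disulphides, lay on the ssa2Δ side with 1153 FPKM in mas5Δ cells and 2369 FPKM in ssa2Δ cells, against 613 FPKM in wild type (-1.19). In ssa2Δ cells mug143, wwm3 and grx1 all exceeded wild type past 2-fold.

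Non-coding genes gave the widest single differences, several of them from a level close to 0 in one mutant. SPNCRNA.843, on chromosome I, had 10.7 FPKM in mas5Δ cells and 0.0053 FPKM in ssa2Δ cells, against 24.4 FPKM in wild type; its difference of 10.84 rests on the near-zero value. SPNCRNA.481, a small RNA gene near a centromere of chromosome III, had 0.080 FPKM in mas5Δ cells and 42.7 FPKM in ssa2Δ cells, against 23.6 FPKM in wild type (-9.21). SPNCRNA.1109 had 5.82 FPKM in mas5Δ cells and 571 FPKM in ssa2Δ cells, against 4.08 FPKM in wild type and 168 FPKM after heat (-6.76). It shares its locus with mug135, a gene of the heat list, and with SPNCRNA.1108, which stood on the same side at -3.23 and -4.01, so the 3 values are not independent. Against wild type, SPNCRNA.843 was lower in both mutants and SPNCRNA.1109 stood far above it in ssa2Δ cells alone.

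Near the ends of chromosome III 10 of 79 members within 100 kb were higher in mas5Δ cells and 9 in ssa2Δ cells. SPCP20C8.02c, an uncharacterized gene, had 13.8 FPKM in mas5Δ cells and 0.145 FPKM in ssa2Δ cells, against 5.98 FPKM in wild type (6.42). The pseudogene SPCP20C8.03 next to it had 17.3 FPKM in mas5Δ cells and 0.111 FPKM in ssa2Δ cells, against 4.87 FPKM in wild type (7.13). With a pseudocount of 1 the SPCP20C8.03 difference was 3.92. SPNCRNA.1299, at the other end of the chromosome, had 164 FPKM in mas5Δ cells and 2.11 FPKM in ssa2Δ cells, against 12.0 FPKM in wild type (6.13). These 3 were also below wild type in ssa2Δ cells. Among the 9 centromeric lncRNA members only SPNCRNA.359 was (log2 ratio -0.44). Of the 136 members within 100 kb of an end of chromosomes I to III, 25 were higher in mas5Δ cells and 25 in ssa2Δ cells (18.4% each), against 1.47% and 6.23% of the 5250 members elsewhere. This position measure was chosen after the values were seen. In 16 of 99 members of the mas5Δ side with coordinates (16.2%), over 50% of the 50-base windows occur elsewhere in the genome. The 9 centromeric members are among them, and the share was 0.693% over all members and 0.588% on the ssa2Δ side.

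In large groups of growth genes few members passed 2-fold. The medians of the ribosomal protein and amino acid synthesis genes nevertheless lay further to the ssa2Δ side than the -0.04 of all members. None of 141 cytosolic ribosomal protein members passed 2-fold, though their median lay at -0.32; against wild type the median was -0.86 in mas5Δ cells and -0.51 in ssa2Δ cells. Of 109 ribosome biogenesis members 2 passed 2-fold, both on the ssa2Δ side, with a median of -0.17. None of the 36 proteasome members (median -0.02) or 10 core histone members (0.28) passed 2-fold. Of 71 amino acid synthesis members 6 were higher in ssa2Δ cells past 2-fold and 0 in mas5Δ cells, with a median of -0.54. All 71 are protein-coding, and the share higher in ssa2Δ cells was 4.14% over protein-coding members and 6.69% over all members. Members of the list on the ssa2Δ side included gdh2, the NAD-dependent glutamate dehydrogenase gene (12.3 FPKM in mas5Δ cells, 48.7 FPKM in ssa2Δ cells, 25.04 FPKM in wild type, -2.13), and arg4, for arginine synthesis (184 FPKM in mas5Δ cells, 445 FPKM in ssa2Δ cells, 228 FPKM in wild type, -1.42).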

How the data were processed

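RNA from 6 cultures was selected with oligo-dT and sequenced as single 50-base reads. The authors aligned the reads with TopHat and compared pairs of libraries with Cuffdiff; versions and the genome build are not given in the sources used here. The deposited tables hold FPKM values of 7008 genes for 2 libraries each, and which column is which library was taken from the study's own description. Reads per library are not given, so depth is unknown and no counting interval can be given. Fold change, p and q columns hold the authors' own comparisons and were not used.

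From the deposited FPKM, the log2 difference described above was computed in Python 3.11.15 (numpy 2.4.6, pandas 2.3.3), and counts used a threshold of 2-fold. Named genes were mas5, ssa2, ssa1, hsf1 and ura4, the 15 coding and 5 non-coding genes with the largest difference in each direction, and up to 4 members per list. Others, such as hsp104, hsp9, hsp90, urg3, pho842 and wwm3, the chromosome M, centromeric and subtelomeric genes and the edge genes, were chosen after their values were seen. The members and the lists were chosen with earlier results of these data known, and the stress lists came from published microarrays through the study's supplement.

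Gene names and biotypes came from RefSeq ASM294v3 (6843 of 7008 identifiers matched). Locus coordinates are the files' own; of 2253 loci with 1 gene, 64.7% shared the start and 61.7% the end with that assembly. Promoters were read from the RefSeq genome and annotation rather than from a table of promoters. The computation was tested on simulated data. Alternatives were direct division, pseudocounts of 0.1 and 1, centring, other floors and folds, and leaving out gene classes.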

Additional observations from a re-analysis of the deposited data

How the results depend on the processing

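The 2-fold counts, 102 members higher in mas5Δ cells and 361 in ssa2Δ cells, moved most with the choice of members and of fold. They were 34 and 230 with 10 FPKM required in both mutants, 51 and 204 without non-coding RNA genes, 47 and 84 among genes alone in their locus, 219 and 770 at 1.5-fold, and 54 and 165 at 3-fold. On the mas5Δ side the count was 43 at a floor of 30 FPKM and 261 without a floor, against 252 and 505 on the ssa2Δ side. Direct division of the FPKM gave 133 and 294, a pseudocount of 0.1 gave 102 and 359, a pseudocount of 1 gave 94 and 338, centring gave 108 and 336, and genes with status OK in both tables gave 93 and 350. More members were higher in ssa2Δ cells under each of these settings. Of the 796 recomputed differences of named genes, 757 moved by no more than 0.17 on the log2 scale and 0 changed sign. Direct division and centring shift nearly all genes by the same amount, which is under that bound, so they could hardly exceed it. Pseudocounts of 0.1 and 1 moved 7 and 32 of 199 named genes past it. Of the 110 named genes past 2-fold, 13 lay inside it with direct division (ade7, amt2, ayr1, cdc37, exg3, gld1, gpd3, mfm2, ntp1, pap1, pyp1, ssa1 and sti1). Of genes named outside the rule, hsp104, tas3, arb1, ams1 and SPAC11D3.10 also lay inside it. Among list medians 449 of 479 stayed within the same bound, which direct division and centring could again hardly exceed. Of the 30 that moved, 15 did so among genes alone in their locus. No paired analysis was possible because each condition has 1 library. No replicate could be left out for the same reason.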

Other observations

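Iron genes were split between the mutants. The ferric reductase gene frp1 had 14.3 FPKM in mas5Δ cells and 4.67 FPKM in ssa2Δ cells, against 58.3 FPKM in wild type (log2 difference 1.46), and the siderophore transporter gene str3 had 30.4 FPKM in mas5Δ cells and 8.29 FPKM in ssa2Δ cells, against 65.3 FPKM in wild type (1.73). Both uptake genes were below wild type in both mutants, further in ssa2Δ cells. The gene shu1, for haem uptake, had 6.23 FPKM in mas5Δ cells and 20.8 FPKM in ssa2Δ cells, against 2.25 FPKM in wild type (-1.89), and pcl1, an iron transporter gene of the vacuole, had 84.7 FPKM in mas5Δ cells and 204 FPKM in ssa2Δ cells, against 170 FPKM in wild type (-1.42). The other 7 of 11 iron genes lay within 2-fold. The copper transporter gene ctr4 had 192 FPKM in mas5Δ cells and 460 FPKM in ssa2Δ cells, against 276 FPKM in wild type (-1.41), and was the only one of 10 zinc and copper genes past 2-fold.

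Runs of 3 or more neighbouring coding members past 2-fold in the same direction were counted along the chromosomes, a measure chosen after the values were seen. There were 5, of which 3 were higher in ssa2Δ cells: hhy1, isp3 and fta5, then SPAC11D3.08c to SPAC11D3.10, then SPAC513.02, mfm2 and ams1. With direct division SPAC11D3.10, mfm2 and ams1 lay inside 2-fold, so that only the first of these runs stayed past it. The other 2, urg2 to urg1 and pho84, pho1 and mug180, were higher in mas5Δ cells. The galactose genes gal1 (32.6 FPKM in mas5Δ cells, 11.9 FPKM in ssa2Δ cells, 12.4 FPKM in wild type, 1.31) and gal7 (71.4 FPKM in mas5Δ cells, 30.3 FPKM in ssa2Δ cells, 16.1 FPKM in wild type, 1.09) also lie close together on chromosome II.

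The mitochondrially encoded and centromeric groups differed in what the other libraries showed. Heat-stressed wild type stood above unstressed wild type for the chromosome M members, by 0.91 to 2.54 on the log2 scale, and its centromeric sum of 12.5 FPKM was near the 9.17 to 10.2 FPKM of wild type. With the tRNAs the direction for chromosome M was the other way. All its listed genes held 0.0162% of the summed FPKM after heat, against 0.0221% in unstressed wild type. Whether other cultures of these strains would show either block was not tested, since each strain was sequenced once.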
